A study of Mus musculus with 13 samples.

Results

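The 27 genes described here encode enzymes that make cholesterol from acetyl-CoA and the proteins that control their transcription through SREBP2. They were taken from a list of gene symbols, with each symbol matched to a mouse Ensembl gene ID, and all 27 were found among the 43430 genes of the table. All 27 also had enough counts to be among the 11906 genes tested. Their counts summed over the 13 libraries ran from 466 for Tm7sf2 to 12106 for Srebf2.

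PolyA RNA was read from alveolar macrophages, phagocytes that live on the surface of the air sacs. They were sorted by flow cytometry from the lungs of male C57Bl/6j mice aged 10 weeks. Particulate matter (PM, the small particles of polluted air) was a reference material of the US standards institute NIST, and each exposed mouse received 10 µg through the trachea. Control mice received phosphate-buffered saline (PBS). Metformin, a biguanide drug used against type 2 diabetes, was drunk with the water at 100 mg/kg/day, starting 24 h before the instillation, and the other mice drank the vehicle. Of the 4 groups, those given PBS held 4 mice on vehicle and 3 on metformin, and those given PM held 3 mice on each. Cells of every group were taken 24 h after the instillation. The design gives the libraries of a group as biological replicates. Libraries carry the numbers of their titles, so the metformin groups hold numbers 1, 3 and 4.

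Cells make cholesterol by joining acetyl units into mevalonate, turning mevalonate into isoprene units, joining these into squalene, closing squalene to lanosterol, and trimming lanosterol in many further steps. SREBP2 is a transcription factor held in the endoplasmic reticulum membrane. When membrane sterol is low, its escort SCAP carries it to the Golgi, where proteases release the part that enters the nucleus and switches on the genes of the pathway; INSIG proteins hold SCAP back when sterol is plentiful. Alveolar macrophages clear surfactant lipid, cholesterol included, from the airspace.

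The libraries held 5.567 to 8.101 megacounts assigned to genes, with more in metformin with PM (6.515 to 8.101 megacounts) than in vehicle with PBS (5.567 to 6.362 megacounts). The alveolar macrophage label was checked with 13 markers, all detected, which together took 22378 to 28109 CPM (counts scaled to a common library total), most of it Chil3 (13345 to 19048 CPM). Siglecf, a defining marker, stood at 477 to 608 CPM and fell slightly with PM in both drinking-water arms (-0.20 ± 0.05 with vehicle and -0.22 ± 0.05 with metformin on the log2 scale). With PM, 3 of the 13 markers were called higher and 4 lower in the vehicle arm, and 5 higher and 3 lower in the metformin arm. Of 7 tested monocyte and monocyte-derived macrophage markers, 4 rose with PM in each arm (Itgam, Mmp14, Mmp12 and Cd14), where 2.6% (vehicle) and 7.18% (metformin) of all tested genes were called higher. Apoe, of the same list, fell with PM in the metformin arm (-1.10 ± 0.14), and Ccr2 there had -0.73 ± 0.24 (adjusted p = 0.0527). This list summed to 625 to 716 CPM in vehicle with PBS, 687 to 806 in metformin with PBS (where Apoe was high), 781 to 870 in vehicle with PM and 849 to 900 in metformin with PM. Most of each sum was Cd14, at 550 to 640, 548 to 670, 676 to 768 and 746 to 790 CPM in these groups. Ly6c2, a defining monocyte gene, was at 0 to 0.255 CPM. Alveolar epithelial markers had no call with PM and vehicle, but with PM and metformin 4 of 7 rose (Sftpc by 1.23 ± 0.27, Sftpb, Sftpa1 and Lamp3) and Epcam fell (-0.42 ± 0.12). Their list summed to 230 to 276, 235 to 285, 223 to 264 and 252 to 290 CPM in the 4 groups, in the same order. Epcam (81.5 to 175 CPM) and Cdh1 (71.0 to 107 CPM) made up most of each sum. Sftpc stood at 17.3 to 21.6 CPM in metformin with PBS and 32.5 to 66.8 CPM in metformin with PM. The endothelial and stromal list summed to 7.49 to 14.6, 7.70 to 12.4, 6.78 to 18.05 and 16.9 to 31.4 CPM. The lymphocyte list summed to 0.924 to 1.75 CPM with PBS and 2.60 to 8.56 CPM with PM. None of the 3 tested neutrophil markers was called with PM in either arm, the list of 9 summed to 26.5 to 45.8 CPM, and its members Ly6g and Retnlg had a count of 0 in every library. The part of these other cells in the values of the cholesterol genes was not tested. In RNA from a pool of sorted cells, fewer cells of a kind and less RNA per cell cannot be told apart.

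In saline-treated control mice the pathway was expressed along its whole length. Levels were scaled per kilobase of the length column of the deposited table, which is not a transcript length for every gene. The highest mean level in vehicle with PBS was that of Mvd, the decarboxylase that ends the mevalonate steps (35.1 CPM per kb). Next were Hmgcs1, the synthase that commits acetyl units to the pathway (31.4 CPM per kb), and Insig1 (29.1 CPM per kb). Tm7sf2, a sterol reductase, had the lowest level per kb (0.364 CPM per kb), but 532 bases of its exons overlap Vps51 on the same strand, so its counts are uncertain. These 3 highest and this lowest place were the same with transcript lengths from an annotation release (GENCODE M21), which gave 35.2, 30.2, 29.1 and 3.70 CPM per kb. The table length of Tm7sf2, 13723 bases, was 10.2 times its M21 length, so its 0.364 CPM per kb is not a level per transcript length. Other ranks moved, with Stard4 at rank 18 by table length and rank 6 by M21 length. Among the control genes, Scap stood at 24.4 and Srebf2 at 25.1 CPM per kb. Exons of Scap overlap 5830462I19Rik and those of Ggps1 overlap Arid4b, both on the opposite strand, so their counts are uncertain too. Mbtps2 shares 2867 exon bases with Yy2 on the same strand, and Lbr shares 440 with Dnah14 on the opposite strand. Yy2 and Dnah14 had a count of 0, and the effect of these overlaps was not tested.

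Promoters from RefSeq (build GRCm38.p6) are shown for 7 genes of the pathway that were higher after PM, because these genes moved together and because SREBP2 acts at promoters. Of the 27 genes, 23 had an entry, with 29 promoters; Fdps, Fdft1, Sqle and Stard4 had none. The 250 bases before each start were searched on both strands for TCACNCCAC (letters of a sterol response element), its 8-letter core CACNCCAC (which every match of the longer motif also holds), the E-box CACGTG, the NF-Y box CCAAT and the GC box GGGCGG. In each sequence, capitals mark matches of the sterol element core, the E-box or the NF-Y box. Bases that the deposited table places inside the gene were left out, so some sequences are shorter than 250 bases.
Hmgcs1 (chr13:119690101-119690350, plus strand): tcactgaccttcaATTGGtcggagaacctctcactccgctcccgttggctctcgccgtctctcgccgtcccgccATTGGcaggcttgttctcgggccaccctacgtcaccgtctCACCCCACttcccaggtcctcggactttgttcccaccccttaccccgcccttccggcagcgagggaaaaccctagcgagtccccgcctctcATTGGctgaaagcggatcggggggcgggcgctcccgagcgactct
Cyp51 (chr5:4104747-4104947, minus strand): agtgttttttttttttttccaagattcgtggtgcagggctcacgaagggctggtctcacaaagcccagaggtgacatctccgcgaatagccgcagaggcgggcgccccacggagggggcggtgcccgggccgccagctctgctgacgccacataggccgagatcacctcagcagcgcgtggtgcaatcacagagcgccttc
Insig1 (chr5:28071162-28071362, plus strand): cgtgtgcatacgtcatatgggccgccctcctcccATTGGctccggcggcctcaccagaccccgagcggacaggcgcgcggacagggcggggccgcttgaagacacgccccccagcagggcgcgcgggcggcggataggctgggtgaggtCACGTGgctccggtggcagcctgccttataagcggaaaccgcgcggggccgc
Idi1 (chr13:8885356-8885500, plus strand): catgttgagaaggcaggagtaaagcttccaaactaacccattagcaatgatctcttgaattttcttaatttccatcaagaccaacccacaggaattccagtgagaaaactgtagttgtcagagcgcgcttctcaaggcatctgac
Srebf2 (chr15:82147019-82147265, plus strand): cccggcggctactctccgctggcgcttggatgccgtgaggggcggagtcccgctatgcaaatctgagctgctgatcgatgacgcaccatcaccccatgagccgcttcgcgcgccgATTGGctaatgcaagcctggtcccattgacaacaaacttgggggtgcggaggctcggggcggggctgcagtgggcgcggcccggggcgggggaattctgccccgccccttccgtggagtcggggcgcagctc
Acat2 (chr17:12960748-12960975, minus strand): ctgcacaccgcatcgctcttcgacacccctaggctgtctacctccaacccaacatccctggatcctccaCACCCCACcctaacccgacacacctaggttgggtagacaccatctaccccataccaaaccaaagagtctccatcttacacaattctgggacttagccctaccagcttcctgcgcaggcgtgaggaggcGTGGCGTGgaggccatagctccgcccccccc
Hsd17b7 (chr1:169969242-169969455, minus strand): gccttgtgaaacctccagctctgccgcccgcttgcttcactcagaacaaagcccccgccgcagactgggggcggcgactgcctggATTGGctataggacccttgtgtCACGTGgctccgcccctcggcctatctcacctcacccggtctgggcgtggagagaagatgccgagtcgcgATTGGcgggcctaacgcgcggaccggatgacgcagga

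The 9-letter sterol element was found in 1 of the 29 promoters (3.4%), that of Hmgcs1, 137 to 129 bases before the start, against 1.05% of all 32851 promoters in the RefSeq table and 0.959% of the 11472 promoters of tested genes. Its core stood in 3 promoters, those of Hmgcs1, Insig1 and Acat2 (10.3%, against 5.37% for tested genes), and in Insig1 the match lay 9 to 2 bases before the RefSeq start, past the end of the printed stretch. The E-box stood in 5 promoters (17.2%, against 8.47%), among them those of Hsd17b7 and Insig1. NF-Y boxes stood in 19 of the 29 (65.5%, against 35.5% for tested genes), with 3 in Hmgcs1 and 3 in Hsd17b7, 1 of which is past the printed stretch. The NF-Y boxes of Cyp51 and Idi1 also lie past it, so their printed sequences have no capitals. GC boxes stood in 22 (75.9%, against 57.3%). The core was in 3 of 10 genes that rose with PM in vehicle-treated mice and in 0 of 13 that did not pass the test there, the NF-Y box in 9 of 10 and 10 of 13. These matches describe letters within a window and no binding was measured.

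With vehicle in the drinking water, PM was followed by higher RNA of 14 of the 27 genes, and none was lower. Sqle, Fdps and Acat2 had the largest fitted folds, and Hmgcs1 had the lowest adjusted p. Of all 11906 tested genes, 2.6% were called higher and 2.26% lower in this comparison (adjusted p under 0.05 by the quasi-likelihood test of edgeR with Benjamini-Hochberg adjustment). The median log2 fold change of the 27 genes was 0.439, beside -0.001 over all tested genes. In 17 of the 27, all 3 PM libraries lay above all 4 PBS libraries, as they did in 7.33% of tested genes.

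**Figure D1:**
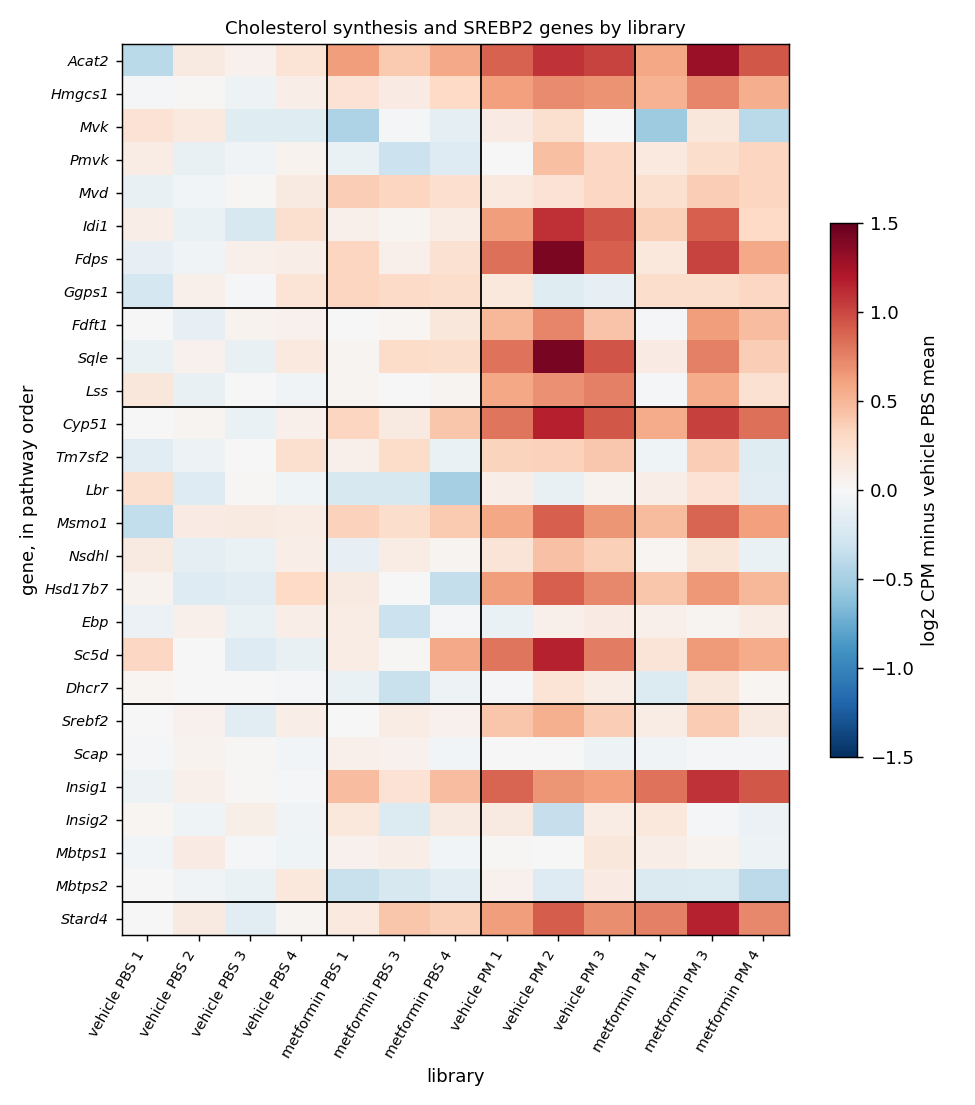
Each cell is the log2 CPM of a gene (rows, in pathway order, split into role groups by lines) in a library (columns, split by group) minus that gene's mean over the vehicle PBS libraries; red is higher. The vehicle PM columns averaged 0.397, 0.537 and 0.455 over the 27 genes, and metformin PM averaged 0.188, 0.501 and 0.273, with library 3 the reddest of its group.

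Among the 8 genes of the mevalonate and isoprene steps, 4 rose with PM in vehicle-treated mice. Acat2, a thiolase that joins acetyl units, stood at 7.12, 10.5, 10.0 and 11.1 CPM in the vehicle PBS libraries and at 17.9, 20.5 and 19.7 CPM in the vehicle PM libraries. The groups did not overlap, and Acat2 rose by 1.002 ± 0.17 on the log2 scale (SE; adjusted p = 0.000785). Hmgcs1, whose promoter holds the 9-letter sterol element, read 98.9, 102, 95.8 and 109 CPM with PBS against 156, 166 and 161 CPM with PM. Its libraries were close together within each group, and it rose by 0.67 ± 0.06 (adjusted p = 1.58e-06).

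Idi1, the isomerase that readies isoprene units for joining, gave 37.4, 32.6, 29.5 and 41.3 CPM with PBS and 54.1, 74.8 and 67.6 CPM with PM, a rise of 0.90 ± 0.14 (adjusted p = 0.000366). Fdps (chr3:89093592-89101967, minus strand), which builds farnesyl diphosphate from those units, gave 21.05, 22.1, 24.1 and 24.5 CPM against 40.7, 61.6 and 42.9 CPM, a rise of 1.08 ± 0.16 (adjusted p = 0.000382). In both genes PM library 2 was the highest and no PM library reached down to the PBS range. The other 4 genes of these steps did not pass the test. The kinases Mvk and Pmvk had log2 changes of 0.11 ± 0.17 and 0.26 ± 0.10, and the decarboxylase Mvd had 0.23 ± 0.07 (adjusted p = 0.0631) with no overlap between the groups. Ggps1, which makes geranylgeranyl diphosphate for protein prenylation and so leaves the sterol branch, had -0.05 ± 0.12.

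All 3 genes that take farnesyl diphosphate to lanosterol rose. Sqle encodes squalene epoxidase, an oxygen-dependent and tightly regulated step. It stood at 26.3, 29.3, 26.0 and 31.1 CPM with PBS and at 49.6, 75.7 and 54.3 CPM with PM. The gene lies at chr15:59315077-59331192 (mm10, plus strand). Its rise was the largest among the 27 genes in this comparison, 1.09 ± 0.14 (2.13-fold, adjusted p = 7.24e-05). Lss, the cyclase that closes the ring system of lanosterol (chr10:76531588-76557138, plus strand), rose by 0.68 ± 0.12 from a mean of 20.3 ± 1.75 CPM (SD, n = 4) to 32.5 ± 2.06 CPM (SD, n = 3). Fdft1, squalene synthase, rose by 0.56 ± 0.12 (adjusted p = 0.00563), but without vehicle PM library 2 its adjusted p was 0.0533. Exons of Fdft1 overlap those of Ctsb, a far more abundant gene on the opposite strand, and exons of Lss overlap 4930483K19Rik, so their counts are uncertain with a kit that keeps no strand.

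Of the 9 genes between lanosterol and cholesterol, 4 rose and 5 did not pass the test. Cyp51, the lanosterol demethylase, read 54.3, 56.1, 51.2 and 57.5 CPM with PBS against 95.9, 123 and 105 CPM with PM. The lowest PM library was well above the highest PBS library, and Cyp51 rose by 0.98 ± 0.10 (adjusted p = 4.5e-06). Its exons share 166 bases with Akap9 on the opposite strand. Msmo1, which oxidizes the methyl groups at carbon 4 of the ring, read 32.9, 46.4, 46.9 and 45.9 CPM with PBS against 63.7, 79.5 and 67.6 CPM with PM. PBS library 1 was the lowest of its group, and the rise was 0.71 ± 0.11 (adjusted p = 0.00055).

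Hsd17b7, a ketosteroid reductase of the same demethylation, read 16.1, 13.5, 13.9 and 19.1 CPM with PBS and 24.2, 29.2 and 25.7 CPM with PM, and it rose by 0.76 ± 0.13. Sc5d, the desaturase that sets a ring double bond, read 15.5, 12.4, 10.8 and 11.4 CPM with PBS and 21.9, 28.1 and 21.3 CPM with PM, a rise of 0.92 ± 0.16 (adjusted p = 0.00107 for both genes). The groups did not overlap in either gene. The 5 others were Nsdhl (0.34 ± 0.10, adjusted p = 0.0682), Tm7sf2 (0.38 ± 0.18), Dhcr7 (0.09 ± 0.09), Ebp (0.03 ± 0.09) and Lbr (0.01 ± 0.12). They include Dhcr7 and Ebp, a reductase and an isomerase of the late steps.

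The control genes divided. Srebf2, which encodes SREBP2 itself, stood at 125, 130, 111 and 134 CPM with PBS and at 167, 180 and 162 CPM with PM, and rose by 0.44 ± 0.07 (adjusted p = 0.000769). Insig1, the sterol-responsive retention protein, stood at 74.4, 82.9, 79.2 and 77.9 CPM with PBS and at 144, 124 and 121 CPM with PM. All PM libraries were higher, and Insig1 rose by 0.72 ± 0.08 (adjusted p = 7.45e-06). For Scap, Insig2 and the activating proteases Mbtps1 and Mbtps2, log2 changes lay between -0.03 and 0.06, with SEs of 0.05 to 0.12, and none passed the test. Stard4, a carrier that moves sterol between membranes, rose by 0.75 ± 0.12 (adjusted p = 0.000443), from 23.1, 25.5, 20.7 and 23.9 CPM to 36.02, 44.0 and 37.9 CPM.

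**Figure D2:**
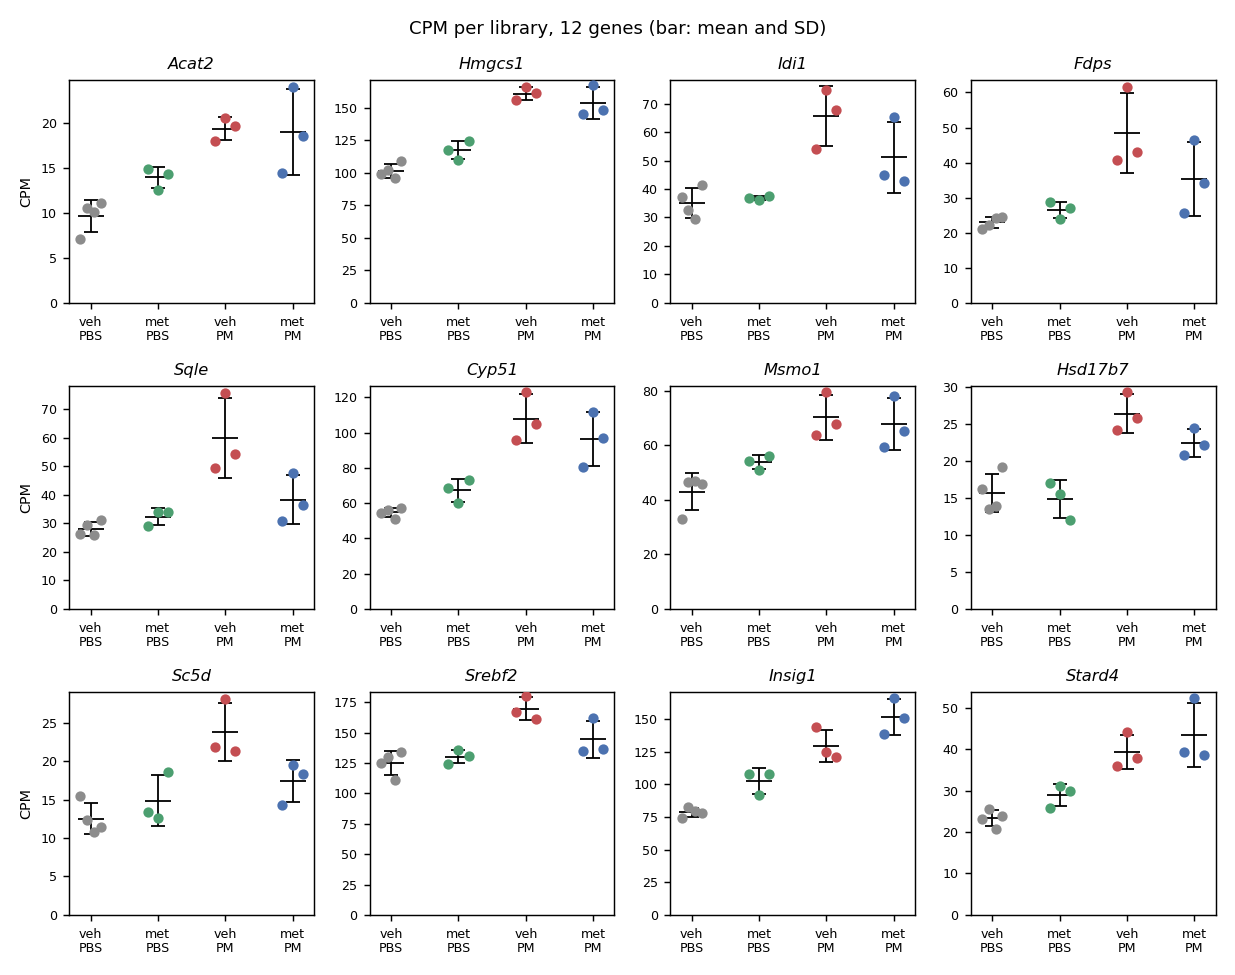
Points are CPM of single libraries in the 4 groups (veh, vehicle; met, metformin) for the 12 genes with the lowest adjusted p in any comparison, and bars are group means with SD; every vertical axis starts at 0. Vehicle PM libraries lie above all vehicle PBS libraries in each panel, and metformin PM library 3 is the highest of its group in all 12.

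Libraries of a PM group differed in height. Vehicle PM library 2 was the highest of its group in 11 of the 12 plotted genes, and metformin PM library 3 in 12 of 12, all chosen by low adjusted p. Over all 27 genes, vehicle PM library 2 was the highest of its group in 16 and the lowest in 5, and metformin PM library 3 was the highest in 22 and the lowest in 1. With both of these libraries left out, an alternative chosen after the data were seen, the same 14 genes were called higher with PM in vehicle-treated mice. In metformin-treated mice this alternative called 5 genes, against 7 with all libraries, and Idi1 and Hsd17b7 were lost.

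With metformin in the drinking water, 7 of the 27 genes were higher after PM than after PBS and none was lower. Among all tested genes 7.18% were called higher and 5.6% lower. The median log2 fold change of the 27 was 0.243, beside 0.005 for all genes. Insig1 read 108, 91.4 and 108 CPM in metformin with PBS and 139, 166 and 150.5 CPM in metformin with PM, a rise of 0.57 ± 0.08 (adjusted p = 9.93e-05). Hmgcs1 read 118, 110 and 125 CPM against 145, 168 and 148 CPM, a rise of 0.39 ± 0.07 (adjusted p = 0.000758). In both genes every PM library was above every PBS library, as in 9 of the 27 genes and 16.1% of tested genes.

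Stard4 rose by 0.59 ± 0.12, from 25.9, 31.1 and 29.9 CPM to 39.3, 52.2 and 38.6 CPM (adjusted p = 0.00242). Cyp51 rose by 0.52 ± 0.11, from 68.4, 60.2 and 73.2 CPM to 80.8, 112 and 97.3 CPM (adjusted p = 0.0027). Hsd17b7 rose by 0.60 ± 0.14, from 17.0, 15.45 and 12.01 CPM to 20.7, 24.5 and 22.1 CPM. Every PM library of these 3 genes was also above every PBS library, a separation that 16.1% of tested genes showed. Pmvk, phosphomevalonate kinase, rose by 0.45 ± 0.11 (adjusted p = 0.0104), and Idi1 by 0.48 ± 0.15 (adjusted p = 0.0384).

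Several calls in the metformin arm were lost when 1 library was left out. Idi1 was called in 15 of 22 alternatives. Its call was lost with limma-voom, without any 1 of the metformin PBS libraries, and without vehicle PM library 3, which is outside this comparison. Idi1 read 36.8, 35.998 and 37.6 CPM with PBS and 44.9, 65.3 and 43.0 CPM with PM, and without metformin PM library 3 its log2 change was 0.25 ± 0.13 (adjusted p = 0.297). Hsd17b7 was also not called without that library (adjusted p = 0.0529) or without metformin PBS library 4 (0.0599), nor Pmvk without metformin PBS library 3 (0.0677). Without metformin PM library 1, the count of called genes was 12, with Acat2, Fdps, Fdft1, Lss and Msmo1 added.

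None of the 3 squalene and lanosterol genes passed the test with metformin. Sqle read 28.97, 34.1 and 33.9 CPM with PBS and 30.7, 47.6 and 36.4 CPM with PM, so that the groups overlapped, and its log2 change was 0.24 ± 0.16 (adjusted p = 0.359). Lss had 0.25 ± 0.13 and Fdft1 had 0.31 ± 0.12. Fdps read 28.65, 24.1 and 26.95 CPM against 25.6, 46.5 and 34.1 CPM, with a change of 0.41 ± 0.18 (adjusted p = 0.141). Acat2 had 0.44 ± 0.17 (adjusted p = 0.0883), Msmo1 0.33 ± 0.12 (0.0689), Lbr 0.40 ± 0.13 (0.0569), Sc5d 0.22 ± 0.17 and Srebf2 0.15 ± 0.08. The log2 changes of the remaining 11 genes lay between -0.07 and 0.17.

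**Figure D3:**
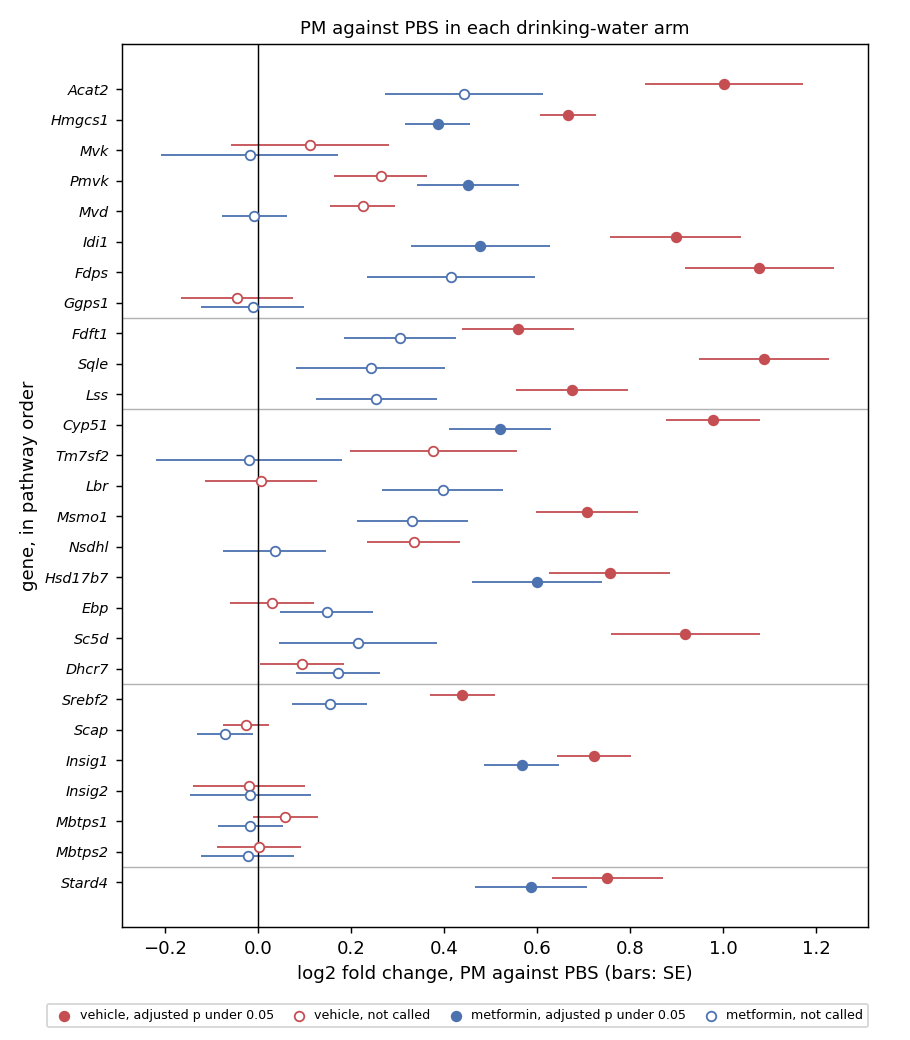
Horizontal axis: log2 fold change of PM against PBS for each gene, with SE bars, in vehicle-treated (red) and metformin-treated mice (blue); filled points have an adjusted p under 0.05. Filled red points number 14 and filled blue points 7, and all lie to the right of 0.

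Whether PM acted differently with metformin was tested as the difference of the 2 PM effects. None of the 27 genes passed this test after adjustment, while 0.89% of tested genes were called with a larger log2 change under metformin and 0.546% with a smaller one. At an unadjusted p under 0.05, 10 of the 27 genes had a smaller PM effect with metformin (5.3% of tested genes) and 1, Lbr, a larger one (6.29% of tested genes). The median difference was -0.233, beside 0.006 for all genes. DESeq2 called 1 of the genes and limma-voom 0, each with 11 at an unadjusted p under 0.05.

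Sqle had the difference with the lowest p, -0.85 ± 0.21 (adjusted p = 0.0545). Over 21 alternatives its adjusted p ran from 9.58e-08 to 0.14, and only 8 of them called it. Sqle was the gene that DESeq2 called (adjusted p = 0.0104). The next by unadjusted p were Cyp51 (-0.46 ± 0.15, adjusted p = 0.158), Sc5d (-0.70 ± 0.23, 0.175) and Hmgcs1 (-0.28 ± 0.09, 0.181). Srebf2 had a difference of -0.29 ± 0.11 and Fdps of -0.66 ± 0.24. For Insig1, Stard4 and Hsd17b7, which rose in both arms, the differences were -0.16 ± 0.11, -0.16 ± 0.17 and -0.16 ± 0.19. Without metformin PM library 3, 3 genes were called, Fdps, Sqle and Cyp51.

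Metformin was also compared with vehicle within each instillate, and both comparisons use groups that enter the PM comparisons. In mice given PBS, 2 of the 27 genes were higher with metformin and none was lower, beside 1.13% and 1.93% of tested genes. Insig1, at 108, 91.4 and 108 CPM with metformin against 74.4 to 82.9 CPM with vehicle, rose by 0.38 ± 0.08 (adjusted p = 0.0122). Mvd rose by 0.32 ± 0.07 (adjusted p = 0.013), from 57.3, 59.8, 62.3 and 67.9 CPM to 79.6, 77.6 and 73.8 CPM. In both genes all metformin libraries were above all vehicle libraries, as in 8 of the 27 genes and 6.2% of tested genes. Mvd was not called without vehicle PBS library 1 (adjusted p = 0.0512), nor Insig1 without metformin PBS library 4 (0.0843).

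Among the genes that did not pass the test in these saline mice, Acat2 had the largest log2 change, 0.53 ± 0.18 (adjusted p = 0.115). The median of the 27 genes was 0.070, and their changes ran from -0.34 for Lbr to 0.53. In the sterol control group, Srebf2 had 0.06 ± 0.07, Scap 0.03 ± 0.05 and Mbtps2 -0.24 ± 0.09.

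In mice given PM, 2 of the 27 genes were lower with metformin and none was higher, beside 2.81% and 4.08% of tested genes. Sqle read 30.7, 47.6 and 36.4 CPM with metformin against 49.6, 75.7 and 54.3 CPM with vehicle. The highest metformin library was just under the lowest vehicle library, a separation seen in 5 of the 27 genes and 13.1% of tested genes. Sqle fell by 0.64 on the log2 scale (SE 0.15, adjusted p = 0.00956). Lss fell by 0.40 (SE 0.12, adjusted p = 0.046), from 30.4, 32.8 and 34.5 CPM to 19.9, 30.1 and 23.8 CPM. Both genes belong to the squalene and lanosterol steps, and the third, Fdft1, had -0.18 ± 0.12.

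The Sqle call was lost without vehicle PM library 2 (-0.44 ± 0.13, adjusted p = 0.0795) or without metformin PM library 1 (-0.50 ± 0.15, 0.0682). The Lss call was lost in 12 alternatives, with adjusted p up to 0.227 without metformin PM library 1. Of the other genes, Sc5d (-0.46 ± 0.16, adjusted p = 0.0875), Fdps (-0.45 ± 0.16, 0.11), Srebf2 (-0.23 ± 0.08, 0.0803) and Insig1 (0.23 ± 0.08, 0.0945) did not pass the test. Ggps1, of the branch to prenylation, had 0.32 ± 0.12 (0.111). All its metformin libraries were above all vehicle libraries, which held for 1 of the 27 genes and for 13.4% of tested genes.

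**Figure D4:**
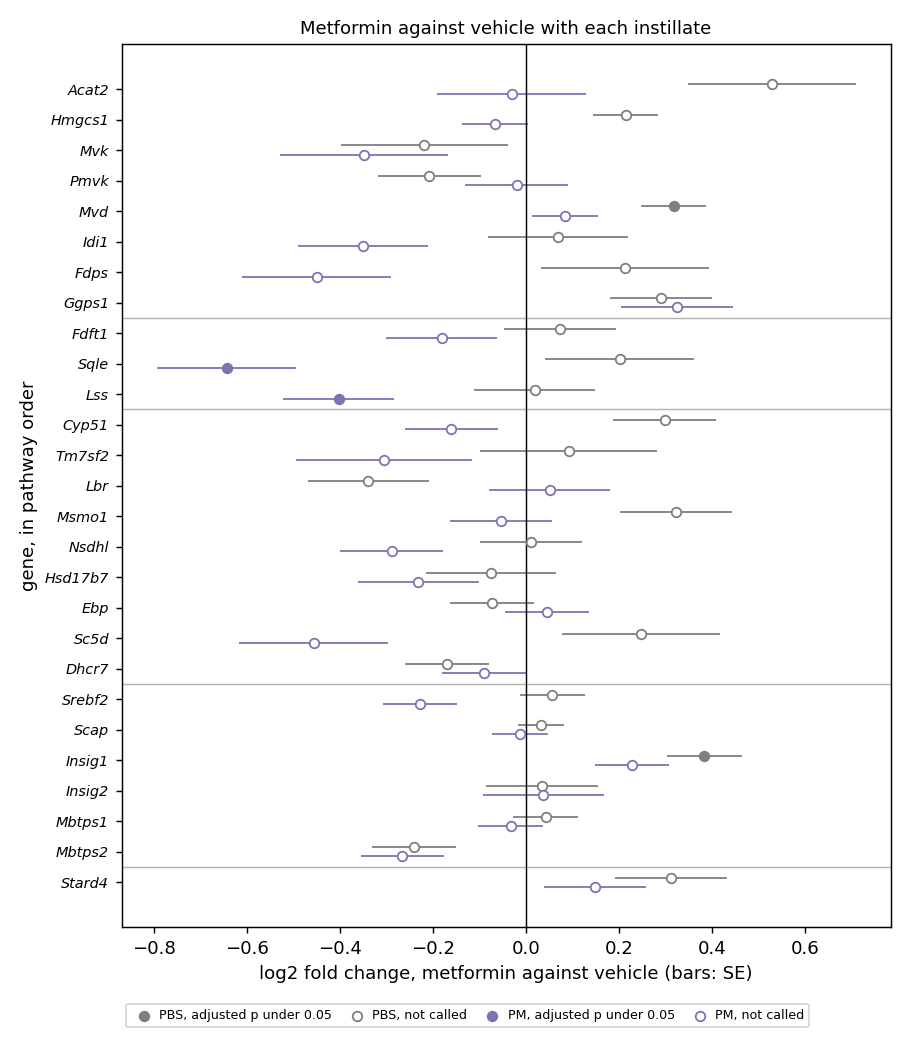
Horizontal axis: log2 fold change of metformin against vehicle for each gene, with SE bars, in mice given PBS (grey) and PM (purple); filled points have an adjusted p under 0.05. Filled grey points (Mvd, Insig1) lie right of 0 and filled purple points (Sqle, Lss) left of it.

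Genes that work next to the pathway were read from 4 further lists. Of 15 tested genes that handle sterol (storage, efflux, transport and uptake), 1 rose and 2 fell with PM in vehicle-treated mice. These were 6.67% and 13.3% of the list, beside 2.6% and 2.26% of all tested genes. Ch25h, which makes 25-hydroxycholesterol, a sterol that restrains SREBP2 processing, stood at 19.0, 14.7, 17.2 and 14.8 CPM with PBS and at 58.9, 56.8 and 43.9 CPM with PM. It rose by 1.69 ± 0.16 (adjusted p = 1.08e-06). Mylip, a ubiquitin ligase that degrades lipoprotein receptors, fell by 0.42 (SE 0.08), and Nceh1, a cholesteryl ester hydrolase, fell by 0.24 (SE 0.05).

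With metformin, 3 genes of the sterol handling list rose with PM and 4 fell (20% and 26.7%). Of all tested genes, 7.18% were called higher and 5.6% lower in that comparison. Ch25h rose by 1.97 ± 0.19, from 12.8, 8.92 and 10.8 CPM to 32.4, 54.5 and 40.6 CPM. Mylip fell by 0.81 (SE 0.08, adjusted p = 1.76e-06), and the difference of its 2 PM effects, -0.39 ± 0.11, did not pass the test (adjusted p = 0.1). Among 11 genes of sterol regulation, Rnf145 alone was called, with a fall of 0.45 (SE 0.11) with PM in vehicle-treated mice. That was 9.09% of the list, beside 2.26% of all tested genes called lower there. Rnf145 was not called without vehicle PM library 1 or 2. Of 13 genes that use isoprenoids, 0 were called by edgeR with PM and vehicle. With PM and metformin 1 was called higher (7.69%), near the 7.18% of all tested genes called higher there. That gene was Nus1, a subunit of the enzyme that makes dolichol, at 162, 148 and 152 CPM with PBS and 246, 259 and 258 CPM with PM, a rise of 0.72 ± 0.06 (adjusted p = 1.91e-07).

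SREBP1 targets, which serve fatty acid synthesis, are the sister programme of the SREBP2 genes. Of 10 tested, 1 rose with PM in vehicle-treated mice (10%, beside 2.6% of all tested genes). It was Me1, malic enzyme, from 0.319 to 1.10 CPM up to 2.26 to 4.51 CPM. With metformin, Elovl6, a fatty acid elongase, rose with PM by 1.35 ± 0.18, while Srebf1 (-0.37 ± 0.06) and the desaturase gene Scd2 (-0.43 ± 0.11) fell. That was 10% of the list higher and 20% lower, beside 7.18% and 5.6% of all tested genes. Within PM-exposed mice, 9 of the 10 had negative log2 changes with metformin (median -0.284, beside -0.004 over all tested genes). Of the 10, 1 was called higher (10%) and 2 lower (20%), beside 4.08% and 2.81% of all tested genes. Srebf1 fell with metformin from 176, 167 and 166 CPM to 127, 129 and 132 CPM, a change of -0.39 ± 0.06 (adjusted p = 0.000298). Scd2 fell from 135, 163 and 149 CPM to 82.7, 103 and 92.3 CPM. Elovl6 read 15.7, 22.9 and 18.5 CPM with vehicle and 54.7, 35.03 and 44.2 CPM with metformin in the same mice, a rise of 1.24 ± 0.17 (adjusted p = 0.000209). The groups did not overlap in Srebf1, Scd2 or Elovl6, as was so for 13.4% (higher) and 13.1% (lower) of tested genes.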

How the data were processed

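RNA of sorted alveolar macrophages from 13 mice was made into polyA libraries (NEBNext Ultra I) and read as 75 bp single ends. By the submitters' processing notes, bcl2fastq 2.19, TopHat2, HTSeq and edgeR were used on mm10. The annotation release and the strand setting are not given in the sources used here. The authors deposited a raw read count per gene and library, with Start, End and Length columns (unit "other" in the deposited table). The members and gene lists were chosen with earlier results of these data known.

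Here the counts were fitted with edgeR 4.0.16 in R 4.3.3 (filterByExpr, TMM scaling, quasi-likelihood, 1 coefficient per group, 9 residual degrees of freedom). Benjamini-Hochberg adjustment ran over all 11906 genes within each of 5 comparisons. An adjusted p under 0.05 makes a gene called, and "rose" or "fell" is used of called genes. CPM use TMM-scaled library sizes, and the SE is the log2 change divided by the square root of F. All 27 genes are accounted for. Values per library are given for the 12 with the lowest adjusted p in any comparison and for some others chosen after their values were seen, and up to 4 genes of each other list are named per comparison. Of 43430 IDs, 42462 had a symbol. The steps were tested on simulated data. Alternatives were DESeq2 1.42.0, limma-voom (limma 3.58.1), other scalings and filters, a fit of only the groups compared, a replicate block, and leaving out each library. Matplotlib 3.10.9 drew the figures (pandas 2.3.3, NumPy 2.4.6, Python 3.11.15). Reads and alignments were not analysed here.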

Additional observations from a re-analysis of the deposited data

Results flagged for a closer look

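Among the 27 genes, 1 had a library far from the rest of its group of 4: Msmo1 stood at 32.9 CPM in vehicle PBS library 1, and at 45.9 to 46.9 CPM in the other 3 (the gap was 0.931 of the range of the group, past Dixon's critical value for 4 samples). Chance alone gives about 1 such group in 20, and 27 were searched. Without that library Msmo1 was still called higher with PM in vehicle-treated mice.

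Outside the 27 genes, the PM effect on Nus1, a dolichol synthesis gene, was larger with metformin than with vehicle by 0.54 ± 0.08 on the log2 scale (adjusted p = 0.00234, edgeR), and the call held in all 21 settings. The PM effect on Apoe, a lipoprotein that carries sterol out of macrophages, differed by -1.06 ± 0.20 (adjusted p = 0.00805). Apoe is also a gene of the monocyte-derived macrophage list. It stood at 43.4 to 58.9 CPM in vehicle with PBS, 87.9 to 117 in metformin with PBS, 41.6 to 59.2 in vehicle with PM and 39.4 to 58.5 in metformin with PM.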

How the results depend on the processing

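No median over the 27 genes and no called gene of the 27 changed sign under the alternatives run. The medians over all tested genes, between -0.016 and 0.016, crossed 0 in some. With PM and vehicle, 14 or 15 of the 27 genes were called under each setting other than leaving out 1 library (13 to 15; 13 without vehicle PM library 2). With PM and metformin the count of 7 became 11 with no filter and 5 to 12 with 1 library left out (5 without metformin PM library 3 or metformin PBS library 3 or 4, 12 without metformin PM library 1). It was 5 with vehicle PM 2 and metformin PM 3 both left out. For metformin with PBS the count of 2 became 6 with no filter and 1 to 3 with 1 library left out. For metformin with PM the count of 2 became 1 with DESeq2, 7 with no filter and 0 to 6 with 1 library left out (0 without metformin PM library 1, 6 without metformin PM library 3). For the difference of the PM effects the count of 0 became 1 with DESeq2, 6 with no filter, 1 with vehicle PM 2 and metformin PM 3 both left out, and 0 to 3 with 1 library left out (3 without metformin PM library 3). The cause of these shifts was not tested. A fit with the replicate block gave 14, 9, 2, 1 and 1 called genes in the 5 comparisons. Same-numbered libraries of different groups had correlations of -0.102 to 0.116 in their deviations from the group means, and 1 of 16 pairs was above 0.1, so the numbers were not taken as pairs. Tm7sf2 had the fewest counts of the 27 genes (466 over 13 libraries), and its SEs ran from 0.18 to 0.27 on the log2 scale.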
